A study of Mus musculus with 12 samples.

Results

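The sequencing data describe how C3a and C3aRA set the transcripts of BV2 cells apart while oxyhaemoglobin (oxy-Hb) was present. BV2 is an immortalised mouse microglial line. The comparison uses 6 of the 12 samples of the series, chosen by their labels alone, with 3 libraries per addition, and covers all 22935 genes listed for both. All groups used here carried 10 µM oxy-Hb, the haemoglobin that lysed red cells set free after a bleed. The label gives C3a as 20 ug/ul, and this unit could not be checked. C3aRA is given at 50 µM and only by its abbreviation, and both additions are labelled with PBS as well. A further 3 libraries received oxy-Hb and neither addition. They entered the fit for the spread between libraries and appear below as levels, with no test against them. The 3 PBS samples were not analysed here. Nothing in the labels ties a replicate to a culture of its own. The p-values below therefore cover only the spread among these libraries, which may be technical, and 1 cell line stands for microglia throughout.

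C3a is the small fragment released when complement component C3 is cleaved, and it signals through the receptor C3aR, a G protein-coupled receptor of myeloid cells that couples to inhibitory G proteins. Such receptors lower cyclic AMP, raise calcium and activate mitogen-activated protein kinases, which in turn induce immediate early transcription factors and their own feedback inhibitors. In microglia, C3aR has been studied for its part in phagocytosis, lipid handling and inflammatory gene expression.

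The 9 libraries held 12934794 to 20479002 read counts. Levels of genes are given as CPM, counts scaled to a common library size, after TMM scaling, which evens out differences in library makeup. A floor of 3 counts corresponds to 0.146 to 0.232 CPM and covers counting error only. The 14 microglial markers, 13 of them tested, summed to 2216 to 2447 CPM with oxy-Hb, 2394 to 2825 CPM with C3a and 2346 to 2445 CPM with C3aRA. Cd68, a lysosomal glycoprotein of macrophages, stood at 780 to 1070 CPM, while the homeostatic markers Tmem119 and P2ry12 and the calcium-binding Aif1 lay between 0.236 and 3.76 CPM. Markers of endothelial cells and fibroblasts summed to 91.2 to 156 CPM, those of oligodendrocytes to 31.0 to 37.3 CPM, and those of neurons to at most 4.03 CPM. The library of C3a replicate 2 differed from the other 8, with a score of 76.3 on the first principal component (35.5% of variance) against -23.8 to 10.8. Its genes for cytosolic ribosomal proteins took 56630 CPM in total, and those of the others 36446 to 41610 CPM. List counts are therefore given for all libraries and for the fit without that one. In RNA from a whole culture, fewer cells in a given state and less RNA per cell cannot be told apart.

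With C3a, 406 genes stood higher and 470 lower than with C3aRA, 876 of the 14146 genes tested. These are 6.19% of tested genes, 2.87% in the higher and 3.32% in the lower direction. A gene was called when edgeR's quasi-likelihood test gave a Benjamini-Hochberg adjusted p below 0.05, and 3427 genes had an unadjusted p below that value. The median size of a called difference was 0.63 on the log2 scale, and 108 calls, 41 higher and 67 lower, were at least 2-fold. Groups did not overlap in CPM for 875 of the called genes, against 28.8% of all tested. Without C3a replicate 2 the fit called 1827 of 14613 genes (12.5%), 872 higher (5.97%) and 955 lower (6.54%). Counts of list members in that fit are to be read beside these larger shares. Of the 876 genes, 852 were called in the same direction in that fit and 0 in the opposite one, as the plot of both fits shows. The count moved by over 1.5 times with every library left out. It was 53, 175 and 149 without C3aRA replicate 1, 2 or 3, 1670 and 420 without C3a replicate 1 or 3, and 560, 390 and 575 without oxy-Hb replicate 1, 2 or 3. A fit of the 6 libraries alone called 118 genes, all of them among the 876. The 49 genes called in each of these 9 fits, 19 higher and 30 lower, are described below as held throughout. List shares below rest on the fit that includes oxy-Hb. The 6 libraries alone kept 0 of 7 calls in ribosome biogenesis, and 0 of 5 each among chromatin genes and p53 targets. They kept 1 of 7 in cholesterol synthesis, 1 of 8 in the ER list and 1 of 5 in the integrated stress response. For TREM and Fc receptors it was 2 of 8, for the clock 2 of 5 and for SR splicing factors 5 of 6.

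**Figure D1:**
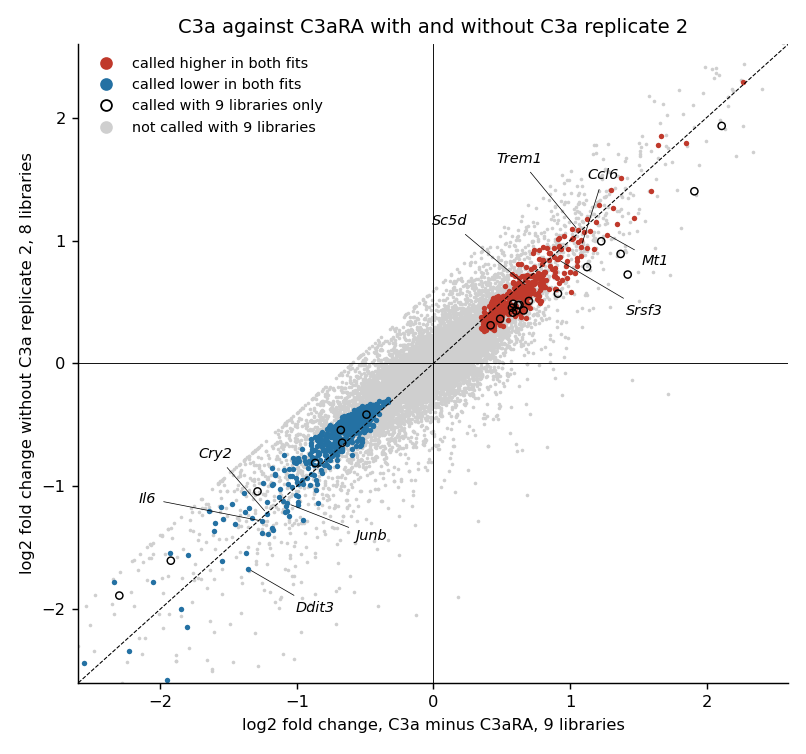
Each point is a tested gene, placed by its log2 fold change of C3a over C3aRA in the fit of 9 libraries (horizontal axis) and without C3a replicate 2 (vertical axis). The 852 genes called in the same direction in both fits lie along the dashed line of equality, and 40 tested genes lie beyond the axes.

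The level of oxy-Hb alone lay between both additions for 673 of the called genes (76.8%, against 39.2% of all tested genes). That place was taken for 370 of the 406 higher genes and for 303 of the 470 lower genes. Among the lower genes, 164 had an oxy-Hb mean above both additions, as shown by the bars left of 0 in the histogram of lower genes. The oxy-Hb mean was nearer to C3aRA than to C3a for 698 called genes (79.7%), and for 64.0% of all tested genes. Called genes were selected for a gap between C3a and C3aRA, and a wide gap holds the oxy-Hb mean more often by construction. The shares over all tested genes are therefore no matched baseline, and no conclusion is drawn from these comparisons. The values are places of group means, and no difference from oxy-Hb was tested here.

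**Figure D2:**
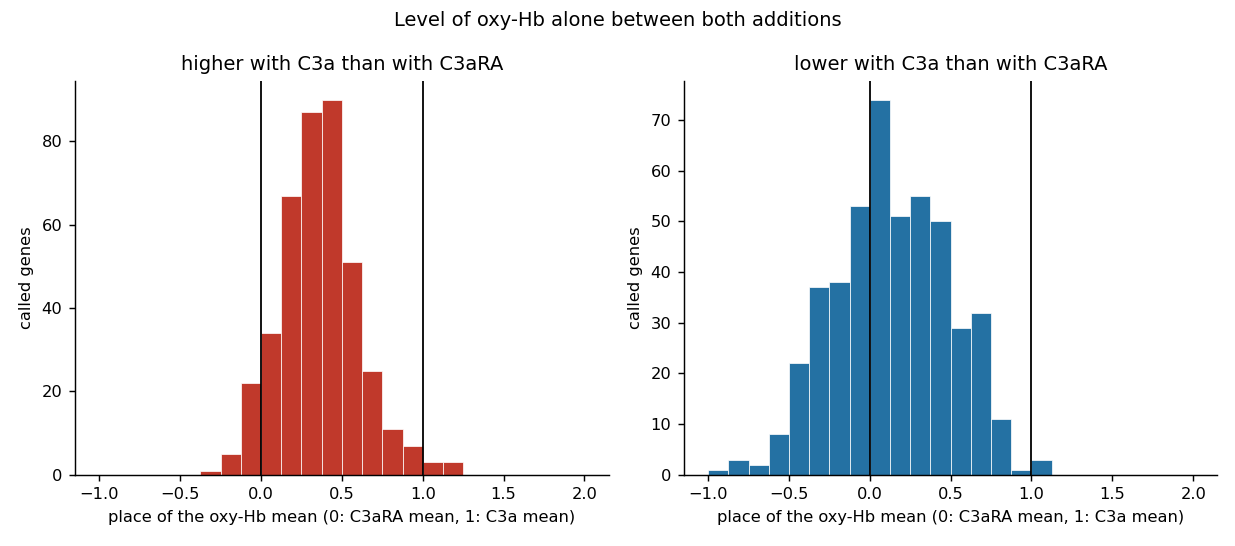
Number of called genes (vertical axis) by the place of the oxy-Hb mean on a log2 scale that runs from the C3aRA mean at 0 to the C3a mean at 1 (horizontal axis), for genes called higher (left) and lower (right) with C3a. Most of the 406 higher genes fall between 0 and 1, while 164 of the 470 lower genes fall left of 0, where oxy-Hb alone was above both.

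The receptor itself, C3ar1, differed in level. It stood at 91.6, 74.5 and 88.3 CPM with C3a and at 62.7, 60.9 and 61.2 CPM with C3aRA, a log2 fold change of 0.46 ± 0.12 (SE; edgeR adjusted p = 0.0355). All 3 C3a libraries lay above all 3 C3aRA libraries, and oxy-Hb alone, at 60.3 to 75.9 CPM, overlapped both. Leaving out single libraries ended the call in 7 of 9 cases, all 3 C3aRA libraries among them, and gave log2 fold changes of 0.41 to 0.54. Among 17 complement genes tested Cfp, encoding properdin, which stabilises the alternative pathway convertase, was also higher (0.68), while C5ar1 (0.57, edgeR adjusted p = 0.08) and C3 (-0.21, edgeR adjusted p = 0.559) did not pass. C5ar1 was called in 1 of the 9 fits, that without C3a replicate 1. C3ar1 and Cfp made up 11.8% of the tested genes of this list, which had 2 higher and 0 lower without C3a replicate 2 as well. Cfp lost its call without any 1 C3aRA library.

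Of 23 genes of inhibitory G proteins, regulators of G protein signalling and cyclic AMP signalling, 2 were called (8.70%, near the 6.19% of all genes). Rgs2, which shortens G protein signals, stood at 103, 138 and 108 CPM with C3a and 67.4, 66.4 and 63.3 CPM with C3aRA, a log2 fold change of 0.82 ± 0.12 (SE; edgeR adjusted p = 0.0044). Both ranges were clear of each other, with C3a replicate 2 the highest, and the call held throughout. Pde4b, a cyclic AMP phosphodiesterase, was lower with C3a (-0.59), a call that ended without C3a replicate 3 or any 1 C3aRA library. This list had 1 higher and 2 lower genes without C3a replicate 2. The G protein subunit genes Gnai2 (0.09, edgeR adjusted p = 0.714) and Gnb1 (0.17, edgeR adjusted p = 0.294) did not pass.

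MAP kinase phosphatases and related feedback genes went both ways. Of 17 tested, 1 was higher and 3 were lower (23.5% called, median log2 fold change -0.21, against 0.01 over all genes). Dusp6, a phosphatase that acts on ERK in the cytoplasm, stood at 91.0, 106 and 89.6 CPM with C3a and 48.0, 67.8 and 67.0 CPM with C3aRA, a log2 fold change of 0.65 ± 0.14 (SE; edgeR adjusted p = 0.0172). Dusp4, a nuclear member of the family, went the other way, with 126, 91.8 and 98.6 CPM against 181, 172 and 197 CPM (-0.80 ± 0.12, SE; edgeR adjusted p = 0.0056). C3a and C3aRA libraries did not overlap for either gene, and for Dusp6 the oxy-Hb mean lay below both. The Dusp4 call held throughout, and that of Dusp6 ended without C3aRA replicate 1 or 3, with log2 fold changes of 0.51 to 0.73 over the 9 fits. Dusp16, which acts on JNK and p38 (-0.63), and Dusp7 (-0.44) were the other members called lower. The Dusp16 call ended without oxy-Hb replicate 2 or any 1 C3aRA library, and that of Dusp7 passed in 2 of the 9 fits. Fitted without C3a replicate 2, the list had 2 higher and 6 lower members, Dusp1 (-1.12) and Dusp2 (-0.62) now among the latter.

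Immediate early genes encode AP-1, EGR and NR4A transcription factors that are transcribed within minutes of a stimulus. None of 25 was higher with C3a and 2 were lower (8% called, near the 6.19% of all genes), and the median was -0.25. Junb, an AP-1 subunit (ENSMUSG00000052837, chromosome 8, 84974484 to 84978718 in GRCm38), stood at 48.1, 47.6 and 35.4 CPM with C3a and 95.9, 83.1 and 96.1 CPM with C3aRA. Every C3a library was below every oxy-Hb library (59.8 to 81.5 CPM), and every C3aRA library above them. The log2 fold change was -1.07 ± 0.15 (SE; edgeR adjusted p = 0.0044), and the call held throughout. Btg2, an antiproliferative immediate early gene, was the other call (-0.72), which passed in 2 of the 9 fits. Without C3a replicate 2, whose list sum of 842 CPM lay within the range of all others (606 to 901 CPM), 10 members were lower, in a fit that called 6.54% of all tested genes lower, and the median was -0.63. Among those 10 were Fos (-1.10), Nr4a2 (-1.11), Nr4a1 (-0.71), Fosl2 (-0.65), Atf3 (-0.46) and Myc (-1.24). In the fit of all libraries Fos was at -0.81 (edgeR adjusted p = 0.0516) and Nr4a2 at -0.99 (edgeR adjusted p = 0.0512).

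**Figure D3:**
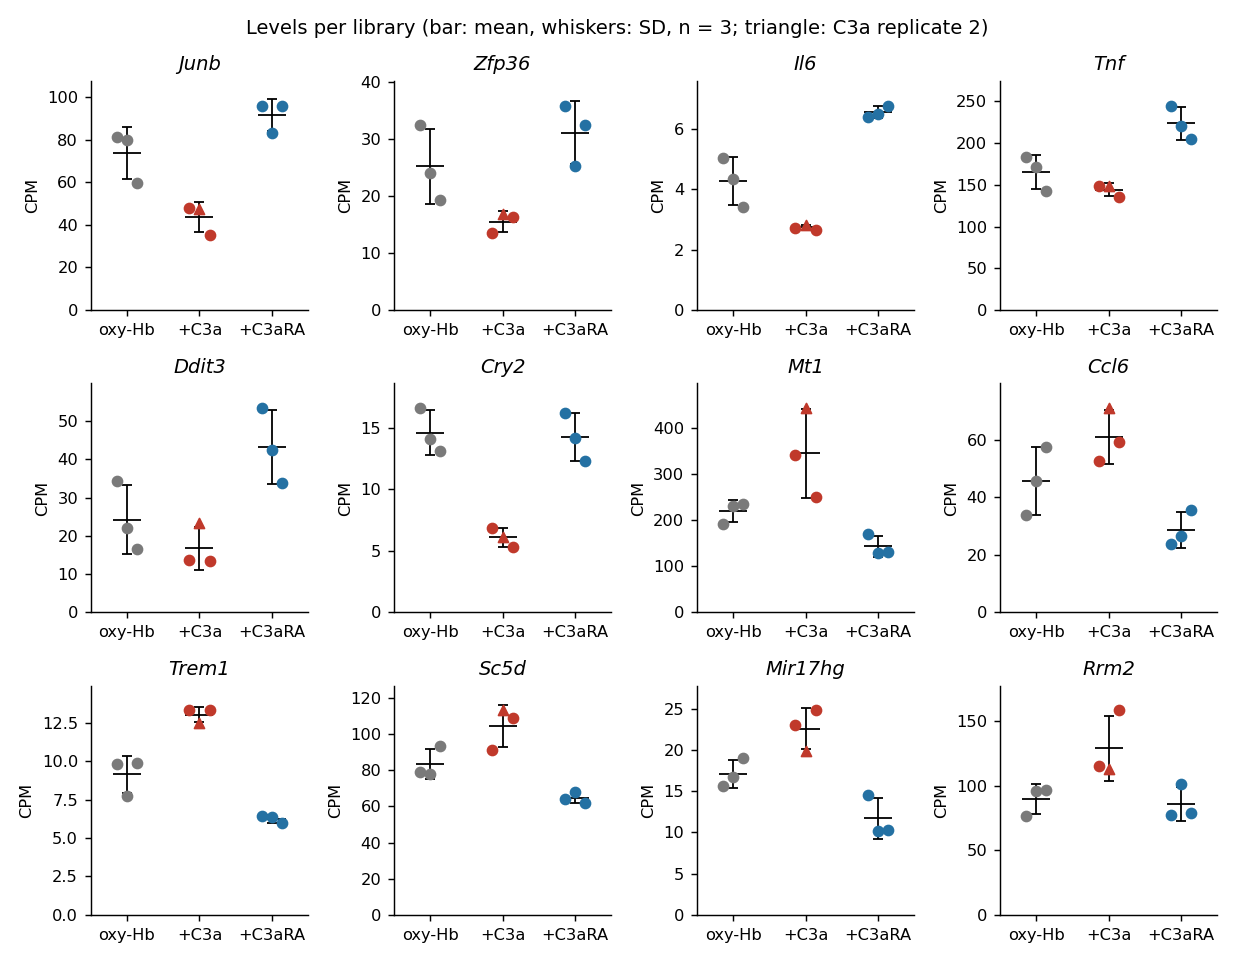
Levels of 12 genes in CPM (vertical axes, from 0) per library, grouped as oxy-Hb alone, C3a and C3aRA (horizontal axes). Points are libraries, the triangle is C3a replicate 2, and bars and whiskers are the mean and SD (n = 3). C3a and C3aRA libraries do not overlap in any panel.

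Cytokine transcripts that were called stood lower with C3a. Of 19 cytokine genes with Ptgs2 and Nos2 among them, 0 were higher and 3 lower (15.8% called, median -0.19). Il6 stood at 2.72, 2.81 and 2.66 CPM with C3a, at 6.37, 6.48 and 6.76 CPM with C3aRA, and at 3.42 to 5.03 CPM with oxy-Hb alone, so that the 3 groups did not overlap (log2 fold change -1.26 ± 0.24, SE; edgeR adjusted p = 0.0126). Tnf followed the same order for its means, with 149, 149 and 135 CPM against 245, 221 and 205 CPM, although the oxy-Hb range of 143 to 183 CPM overlapped that of C3a (-0.63 ± 0.11, SE; edgeR adjusted p = 0.0104). Ptgs2, the inducible cyclooxygenase, had an edgeR adjusted p of 0.0354 (log2 fold change -0.87) that was 0.205 without C3a replicate 2. The Tnf call ended without C3aRA replicate 1, and that of Il6 without C3aRA replicate 1 or 3, with log2 fold changes of -0.69 to -0.56 and of -1.28 to -1.23 over the 9 fits. Ptgs2 kept its call in 3 of those fits. Nos2, inducible nitric oxide synthase, stood at 115, 11.9 and 12 CPM with C3a and at 94.4, 38.3 and 78.8 CPM with C3aRA, and the difference did not pass (-0.61, edgeR adjusted p = 0.723). Without C3a replicate 1, the high library of its group, Nos2 was called lower (edgeR adjusted p = 0.00356), and over the 9 fits its log2 fold change ran from -2.55 to -0.155. The list had 0 higher and 4 lower genes without C3a replicate 2. Il1b, at 0.264 to 0.983 CPM, lay near the floor.

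NF-kB genes and regulators of cytokine mRNA decay gave few calls. Of 25 NF-kB genes 2 were lower (8%, near the share over all genes), Relb, a subunit of the noncanonical pathway (-0.77), and Nfkbiz, a nuclear IkB protein that acts on secondary response genes such as Il6 (-0.75). Nfkbiz stood at 63.4, 39.7 and 50.4 CPM with C3a and 87.0, 81.7 and 89.7 CPM with C3aRA, with no overlap. The inhibitor genes Nfkbia (-0.09, edgeR adjusted p = 0.683) and Tnfaip3 (-0.56, edgeR adjusted p = 0.0746) did not pass, although Tnfaip3 was called without C3a replicate 1 (-0.71). The NF-kB list had 4 lower genes without C3a replicate 2. Among 19 genes of cytokine mRNA decay, Zfp36, which binds AU-rich elements and promotes decay of Tnf mRNA, stood at 13.5, 16.8 and 16.3 CPM against 35.9, 25.2 and 32.4 CPM (log2 fold change -1.0 ± 0.19, SE; edgeR adjusted p = 0.012). Ago2, of the microRNA silencing complex (-1.03), and Tnrc6c, its GW182 partner (-0.67), were lower too. This list had 3 lower genes (15.8% called), and 5 without C3a replicate 2, and its median moved from -0.20 to -0.10. The Zfp36 and Nfkbiz calls ended without C3aRA replicate 1 or 3, those of Relb and Ago2 without C3a replicate 3 or any 1 C3aRA library, and that of Tnrc6c, which passed in 2 of the 9 fits, without 7 of the libraries.

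Chemokine ligands showed 1 call among 14 tested genes (7.14%, near the 6.19% of all genes). Ccl6, a CC chemokine of rodent myeloid cells, stood at 52.6, 71.0 and 59.1 CPM with C3a and 23.8, 26.7 and 35.6 CPM with C3aRA (1.08 ± 0.20, SE; edgeR adjusted p = 0.0104). The C3a libraries were all above, and the call ended without C3aRA replicate 1 or 2. Ccl3 (-0.58), Ccl7 (-0.38), Cxcl2 (-0.81) and Cxcl10 (-0.57) were called lower in the fit without C3a replicate 2. The TNF superfamily had 1 higher and 1 lower gene of 22 (9.09% called), and 3 lower without C3a replicate 2. Tnfsf13b, the B cell survival factor BAFF, was the higher gene. It stood at 19.5, 21.8 and 19.0 CPM against 9.75, 9.37 and 9.88 CPM, with oxy-Hb at 14.5 to 17.1 CPM between them and no overlap of the 3 groups (1.06 ± 0.15, SE; edgeR adjusted p = 0.0044; held throughout).

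**Figure D4:**
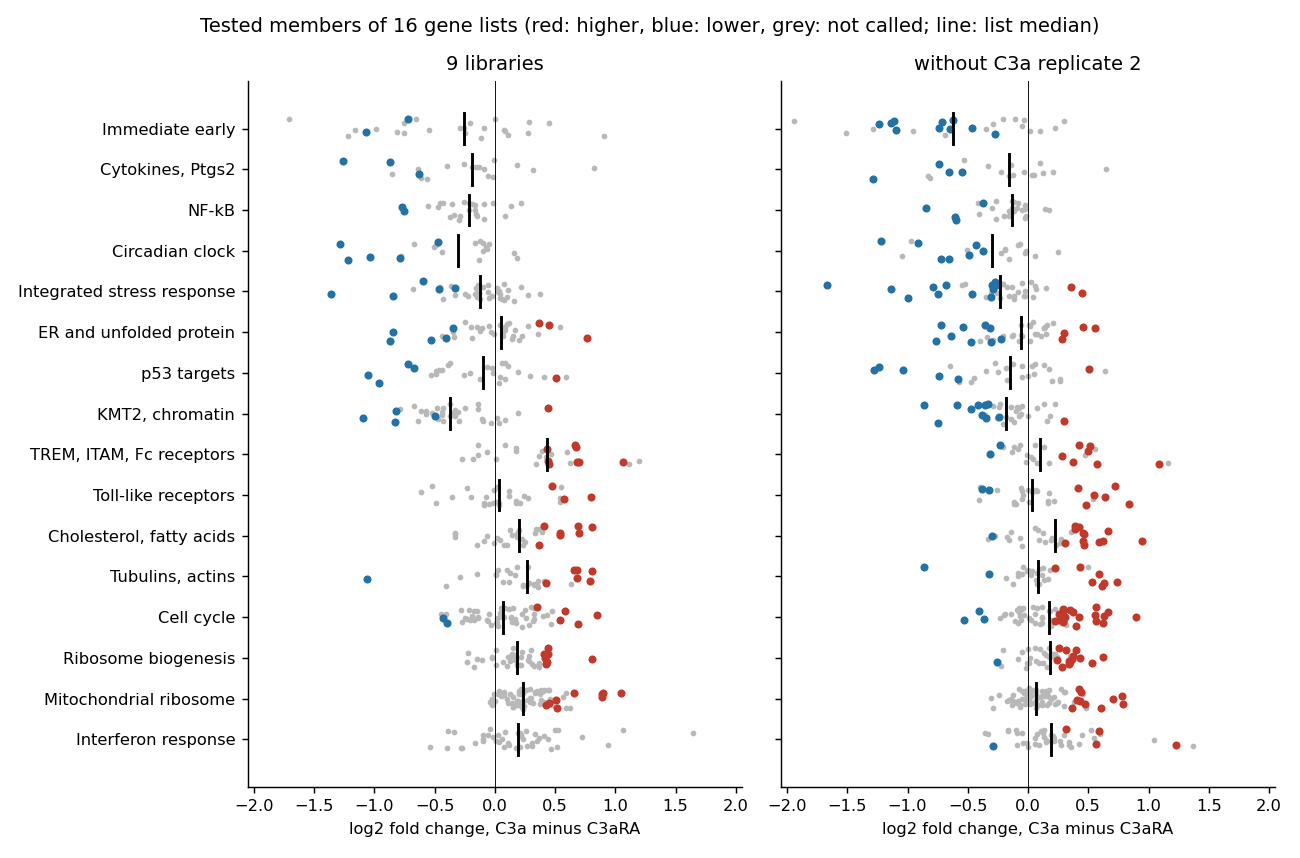
Log2 fold changes of C3a over C3aRA (horizontal axes) for the tested members of 16 gene lists (rows), with 9 libraries (left) and without C3a replicate 2 (right). Points are genes, those beyond 2 on either side drawn at the edge, and black lines are list medians. The TREM, ITAM and Fc receptor median moves from 0.43 to 0.10 when that library is left out, while the cholesterol median stays at 0.20 to 0.23. The clock median is -0.30 in both panels, and was -0.16 after a correction for length and GC content, which is not drawn.

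Several surface receptors of myeloid cells stood higher with C3a. TREM receptors and activating Fc receptors signal through adaptors that carry ITAM motifs and the kinase Syk, while related receptors carry inhibitory ITIM motifs. Of 26 genes of both kinds and their partners 8 were higher and 0 lower with C3a (30.8% called, median 0.43). Trem1, which amplifies Toll-like receptor responses, stood at 13.3, 12.5 and 13.3 CPM with C3a, 6.45, 6.35 and 5.95 CPM with C3aRA and 7.72 to 9.89 CPM with oxy-Hb. These 3 ranges did not overlap, the log2 fold change was 1.06 ± 0.18 (SE; edgeR adjusted p = 0.00776), and the call held throughout. Clec5a, a DAP12-coupled lectin (0.67), Fcgr1, the high-affinity IgG receptor (0.67), Fcgr4 (0.70), Trem2 (0.44) and the CD300 family members Cd300lb (0.45), Cd300a (0.68) and Cd300lf (0.44), the last 2 of them inhibitory, were the others. The adaptor genes Tyrobp (0.36, edgeR adjusted p = 0.275) and Fcer1g (0.17, edgeR adjusted p = 0.57) and the kinase gene Syk (-0.18, edgeR adjusted p = 0.406) did not pass. In the fit without C3a replicate 2, 7 members were higher and 2 lower, and the median was 0.10 with Fcgr4 no longer called (0.51, edgeR adjusted p = 0.055). Without C3aRA replicate 1, Trem1 was the 1 member called.

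Of 29 Toll-like receptor genes and their proximal signalling partners 3 were higher with C3a (10.3% called), and 6 were higher and 2 lower without C3a replicate 2. Tlr13, a mouse endosomal sensor of bacterial ribosomal RNA, stood at 236, 214 and 234 CPM against 118, 138 and 136 CPM (0.80 ± 0.12, SE; edgeR adjusted p = 0.0053; held throughout), with oxy-Hb at 138 to 184 CPM. Tlr7, a sensor of single-stranded RNA, differed by 0.47 and the adaptor Myd88 by 0.57. Tlr7 and Myd88 lost their calls without oxy-Hb replicate 2, C3a replicate 3 or any 1 C3aRA library. The Myd88 call also ended without oxy-Hb replicate 1. Among 32 genes of disease-associated microglia (9.38% called), Ccl6, Trem2 and Igf1 (0.42), a growth factor for myelin-forming cells, were higher. Each call ended without C3aRA replicate 1. Of 23 homeostatic microglia genes edgeR called 0, with 8 at an unadjusted p below 0.05, and DESeq2 called 2. Cx3cr1, the fractalkine receptor, stood at 0.89 (edgeR adjusted p = 0.0521). Median log2 fold changes of the disease-associated and homeostatic lists were 0.18 and 0.32, and 0.02 and 0.06 without C3a replicate 2. In that fit 6 disease-associated genes were higher and 1 lower, and 2 homeostatic genes, Cx3cr1 (1.01) among them, were higher and 1 lower.

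Mt1 stood higher with C3a. Metallothioneins are small cysteine-rich proteins that bind zinc and copper and are induced through the metal-sensing factor MTF1. Mt1 (ENSMUSG00000031765, chromosome 8, 94179082 to 94180327) stood at 343, 444 and 251 CPM with C3a, 170, 129 and 131 CPM with C3aRA and 192, 231 and 236 CPM with oxy-Hb. C3a lay above and C3aRA below all oxy-Hb libraries, and the log2 fold change was 1.27 ± 0.18 (SE; edgeR adjusted p = 0.00544; 1.05 without C3a replicate 2; held throughout). Its neighbour Mt2 was close to the floor, at 0.295 to 1.77 CPM, and did not pass (edgeR adjusted p = 0.575). Of 18 genes of metallothionein and zinc handling Mt1 was the 1 call (5.56%, near the 6.19% of all genes), and 2 were higher without C3a replicate 2. Mtf1 (0.03, edgeR adjusted p = 0.928) and the zinc exporter Slc30a1 (0.26, edgeR adjusted p = 0.276) were not called.

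Genes of haem, iron and oxidant defence gave few calls with all libraries. Of 30 haem and iron genes 2 were lower with C3a (6.67% called), and 2 were higher and 6 lower without C3a replicate 2. Slc25a37, mitoferrin, which carries iron into mitochondria, stood at 90.2, 83.8 and 77.8 CPM against 149, 142 and 139 CPM (-0.77 ± 0.10, SE; edgeR adjusted p = 0.0044; held throughout), and Ppox, of haem synthesis, differed by -0.49, a call that passed in 2 of the 9 fits. Hmox1, the haem-degrading oxygenase, ranged from 660 to 1430 CPM with C3a and did not pass (edgeR adjusted p = 0.414), but was called without C3a replicate 3 (0.58). Fth1, the ferritin heavy chain, which stores iron, did not pass with all libraries (-0.09, edgeR adjusted p = 0.821) and was lower without C3a replicate 2 (-0.43, edgeR adjusted p = 0.000453). Of 35 NRF2 targets of oxidant defence 3 were higher (8.57% called), with a median of 0.25. Without C3a replicate 2 there were 5 higher and 2 lower with a median of 0.11. The 3 were Pgd (0.55) and G6pdx (0.49), both NADPH-producing enzymes of the pentose phosphate pathway, and Srxn1, which repairs oxidised peroxiredoxins (0.66). Each of these calls ended without C3aRA replicate 1 or 2, with log2 fold changes from 0.39 to 0.77 over the 9 fits. The G6pdx call also ended without C3aRA replicate 3.

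The integrated stress response, in which phosphorylation of eIF2alpha favours translation of ATF4 and transcription of its targets, had 5 lower and 0 higher genes of 39 (12.8% called, median -0.12). Ddit3, encoding CHOP, stood at 13.6, 23.3 and 13.5 CPM with C3a and 53.4, 42.4 and 33.9 CPM with C3aRA (-1.36 ± 0.28, SE; edgeR adjusted p = 0.0214). The groups did not overlap, although oxy-Hb, at 16.5 to 34.3 CPM, overlapped both. Nupr1 (-0.59), Gpt2 (-0.46), Aldh18a1 (-0.33) and Ppp1r15a, the phosphatase subunit that reverses eIF2alpha phosphorylation (-0.85), were the others. Atf4 itself (0.04, edgeR adjusted p = 0.878) and the ATF4 target Asns (-0.05, edgeR adjusted p = 0.829) did not pass. In the absence of C3a replicate 2, 12 members were lower, Trib3 (-0.79) and Chac1 (-0.99) among them, and 2 of one-carbon metabolism, Shmt1 (0.45) and Mthfd1l (0.36), were higher. Without C3aRA replicate 1 none of the list was called, and Ddit3 also lost its call without C3a replicate 3 or C3aRA replicate 2.

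The unfolded protein response of the endoplasmic reticulum (ER) gave calls in both directions. Of 36 genes 5 were lower and 3 higher (22.2% called, median 0.05). Among the lower ones were the ER stress sensors Ern1, encoding IRE1 (-0.84), and Eif2ak3, encoding PERK (-0.87). Ern1 stood at 21.4, 15.6 and 20.4 CPM with C3a and 38.1, 31.5 and 33.4 CPM with C3aRA, with no overlap (edgeR adjusted p = 0.0104). Genes of ER-associated degradation, Herpud1 (-0.53), Sel1l (-0.41) and Edem1 (-0.34), were lower as well. Selenos, which also takes part in that degradation (0.77), Ssr1 (0.45) and the disulfide isomerase Pdia3 (0.36) were higher. Herpud1, Sel1l, Edem1 and Pdia3 passed in 2 of the 9 fits. The count was 4 higher and 9 lower without C3a replicate 2, and 0 without C3aRA replicate 1.

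Of 28 p53 targets 4 were lower and 1 higher with C3a (17.9% called, median -0.10). Gdf15, a stress cytokine, stood at 15.2, 23.5 and 12.1 CPM against 34.1, 31.7 and 32.9 CPM (-0.96 ± 0.20, SE; edgeR adjusted p = 0.0169). Bbc3, the proapoptotic PUMA (-1.06), Plk2, a stress-induced kinase (-0.67), and Btg2 were the other lower genes, and Tigar, which limits glycolytic flux, was higher (0.51). In the BCL2 family 3 of 19 genes were lower and 1 higher (21.1% called), and so they were without C3a replicate 2. Bcl2l11, the proapoptotic BIM (-0.60), and the antiapoptotic Bcl2 (-0.62) were lower together with Bbc3, while the proapoptotic Bid was higher (0.64). Plk2 did not pass without C3a replicate 2 (edgeR adjusted p = 0.0993), the p53 list then had 1 higher and 5 lower genes, and 0 of these p53 and BCL2 calls remained without C3aRA replicate 1.

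Several cholesterol synthesis genes stood higher with C3a. SREBP2 drives this pathway when sterol is low in the ER membrane, and many of its genes carry a sterol regulatory element close to their start. Of 32 genes of cholesterol and fatty acid synthesis 7 were higher and 0 lower (21.9% called, median 0.20). Among them were the early steps Acat2 (0.69) and Hmgcs1 (0.54), then Sqle (0.37), and the late steps Msmo1 (0.54), Hsd17b7 (0.81) and Sc5d (0.69). Sc5d stood at 91.3, 113 and 109 CPM with C3a, 64.3, 67.7 and 62.1 CPM with C3aRA and 78.0 to 93.1 CPM with oxy-Hb (0.69 ± 0.12, SE; edgeR adjusted p = 0.00796). C3a and C3aRA did not overlap for any of the 7, and oxy-Hb means lay between them. Without C3a replicate 2 the list had 12 higher genes, Scd2 (0.46), Acly (0.39) and Cyp51 (0.30) among those added, 1 lower gene, Srebf2 (-0.30), which encodes SREBP2, and a median of 0.23. Without C3aRA replicate 1 edgeR called 0 of the list. The log2 fold change of Sc5d was 0.62 to 0.79 over the 9 fits, and that of Hmgcs1 was 0.46 to 0.66.

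Of the 7 genes, 5 were in the RefSeq promoter table (GRCm38.p6). The 250 bases before the start of Hmgcs1 (chr13:119690101-119690350, plus strand) are shown because they alone among the 5 hold the sterol element TCACNCCAC, searched on both strands. The match, in capitals, begins 137 bases before the start. The same letters occur in 1.05% of the 32851 promoters of that length. A match describes the letters only, and binding was not measured.
Hmgcs1: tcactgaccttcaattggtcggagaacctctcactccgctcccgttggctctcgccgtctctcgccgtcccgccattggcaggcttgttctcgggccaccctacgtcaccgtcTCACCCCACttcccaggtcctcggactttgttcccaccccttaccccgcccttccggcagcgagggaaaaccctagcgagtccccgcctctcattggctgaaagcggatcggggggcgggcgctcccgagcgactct

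Several circadian clock genes stood lower with C3a. The clock turns on a loop in which CLOCK and BMAL1 activate Per and Cry genes through E-boxes, PER and CRY proteins repress that activity, and ROR and REV-ERB receptors set Bmal1 expression. Of 20 genes 5 were lower with C3a and 0 higher (25% called), and 7 were lower without C3a replicate 2. The median was -0.30 in both fits, -0.16 once length and GC content were corrected for, and -0.36 to -0.16 over the fits that left out 1 library. Cry2 (ENSMUSG00000068742, chromosome 2, 92403646 to 92434043) stood at 6.87, 6.09 and 5.32 CPM with C3a, 16.2, 14.2 and 12.3 CPM with C3aRA and 13.1 to 16.6 CPM with oxy-Hb (-1.22 ± 0.18, SE; edgeR adjusted p = 0.00544). Per1 stood at 21, 14.6 and 17.7 CPM against 37.7, 31.2 and 40.1 CPM, with oxy-Hb at 34.8 to 41.7 CPM (-1.03 ± 0.15, SE; edgeR adjusted p = 0.00543). For both genes the C3a libraries lay below all 6 others, oxy-Hb overlapped C3aRA, and the call held throughout. Rora (-1.29) and the kinase gene Csnk1e (-0.47) were among the other calls, and both ended without oxy-Hb replicate 2, C3a replicate 3 or any 1 C3aRA library. Rora stood at 23.2 CPM in C3a replicate 1 and at 8.75 and 9.81 CPM in the other C3a libraries, and did not pass without C3a replicate 2 (edgeR adjusted p = 0.0935). The activators Clock (-0.44, edgeR adjusted p = 0.198) and Arntl, encoding BMAL1 (-0.12, edgeR adjusted p = 0.628), did not pass, nor did Per2 (-0.67, edgeR adjusted p = 0.435) and Cry1 (-0.06, edgeR adjusted p = 0.787).

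Of the 5 genes, 4 were in the promoter table, and Per1 alone held an E-box CACGTG, a palindrome, within 250 bases before a start. It is shown for that reason (chr11:69098699-69098948, plus strand, the first of 2 listed starts), with the E-box in capitals beginning 166 bases before the start. This hexamer occurs in 6.02% of promoters of that length.
Per1: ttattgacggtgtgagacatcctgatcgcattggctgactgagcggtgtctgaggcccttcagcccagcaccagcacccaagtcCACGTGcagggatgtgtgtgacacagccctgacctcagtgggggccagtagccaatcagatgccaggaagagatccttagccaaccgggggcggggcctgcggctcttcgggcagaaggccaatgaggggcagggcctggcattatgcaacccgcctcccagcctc

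Of 21 listed noncoding RNAs, chiefly nuclear ones and hosts of small RNAs, 1 was called (4.76%, against 6.19% of all genes). Without C3a replicate 2, 1 was higher and 5 were lower. The list median was -0.13, and 8 members were above 0. The list summed to 2895.3 to 4732 CPM with C3a, below the 5453 to 6502.5 CPM with C3aRA and the 6051 to 7280.7 CPM with oxy-Hb. Such a sum weighs abundant members most, and the difference in sums was not tested. Outside that list the lincRNA Mirt1, named after its values were seen, was lower (-0.88, edgeR adjusted p = 0.0044; held throughout). Mir17hg, the host transcript of the miR-17-92 cluster, which is known as a target of MYC and a promoter of proliferation, lies on chromosome 14 (115042879 to 115046727). It stood at 23, 19.9 and 24.8 CPM with C3a, 14.6, 10.2 and 10.3 CPM with C3aRA and 15.6 to 19.0 CPM with oxy-Hb, so that the 3 groups did not overlap. The log2 fold change was 0.95 ± 0.17 (SE; edgeR adjusted p = 0.0104), and the call ended without C3aRA replicate 2 or 3. The transcript holds 6 miRNA hairpins, and 1 mature arm of each is printed to show what the host gene carries. Capitals mark the seed, bases 2 to 8, which pairs with target mRNAs. miR-17-5p and miR-20a-5p share a seed, as do miR-19a-3p and miR-19b-3p. Sequences are from RefSeq (GRCm38.p6), and the mature miRNAs themselves were not measured.
mmu-miR-17-5p: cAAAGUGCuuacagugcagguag
mmu-miR-18a-5p: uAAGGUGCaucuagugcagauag
mmu-miR-19a-3p: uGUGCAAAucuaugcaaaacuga
mmu-miR-20a-5p: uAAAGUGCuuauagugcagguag
mmu-miR-19b-3p: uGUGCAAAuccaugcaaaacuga
mmu-miR-92a-3p: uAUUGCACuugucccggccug

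Genes of growth and division were called mostly on the higher side. Of 58 cell cycle genes 5 were higher and 2 lower (12.1% called, median 0.07). The higher ones act from G1 into S phase, namely the cyclins Ccne1 (0.54) and Ccne2 (0.85), the kinase Cdk4 (0.69), Rrm2, which makes deoxyribonucleotides (0.58), and the replication clamp Pcna (0.35). Cdk4 stood at 227, 303 and 255 CPM with C3a against 153, 164 and 169 CPM with C3aRA (edgeR adjusted p = 0.00828), with no overlap. Aurkb (-0.43) and Cenpa (-0.40), of mitotic chromosomes, were lower. Leaving out C3a replicate 2, 19 were higher and 3 lower, and the median was 0.18. Ribosome biogenesis followed, with 7 of 41 higher and 0 lower (17.1% called, median 0.19 in both fits). Nop10 (0.81), Nolc1 (0.44), Nip7 (0.44), Nop2 (0.43), Dkc1 (0.43), Nop56 (0.42) and Nop16 (0.41) were these 7, and 13 were higher and 1 lower without C3a replicate 2. Without C3aRA replicate 1 edgeR called 0 genes of either list.

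Several tubulin genes and Actb stood higher with C3a. Of 31 cytoskeletal genes 6 were higher and 1 lower (22.6% called). The higher ones were Tuba1a (0.79), Tuba1b (0.68), Tuba1c (0.81), Tubb4b (0.66), Tubb6 (0.42) and Actb (0.68), and Cit, citron kinase of cytokinesis, was lower (-1.06). Tuba1c stood at 230, 297 and 295 CPM against 144, 154 and 171 CPM (edgeR adjusted p = 0.00544), with no overlap. Tubulin and actin genes have near-identical copies, so their shares of reads are uncertain. The list median was 0.27, and 0.08 without C3a replicate 2, in which 7 were higher and 2 lower. The Cit call held throughout, while without C3aRA replicate 1 none of the 6 higher genes passed.

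Mitochondrial translation gave 9 higher genes of 77 and 0 lower (11.7% called, median 0.24). Mrps21 (1.05), Mrpl18 (0.89), Mrpl20 (0.89) and Mrpl36 (0.89), all subunits of that ribosome, were among them. Mrps21 stood at 57.7, 95.2 and 63.2 CPM with C3a and 34.6, 37.5 and 32.5 CPM with C3aRA, C3a replicate 2 being the highest of the 6. Without that library 10 were higher, and the median was 0.07, while without C3aRA replicate 1 edgeR called 0. The mitochondrially encoded mt-Nd1 (1.08) and mt-Cytb (0.70) were the 2 called of 12 (16.7%), and both share reads with nuclear copies. mt-Nd1 was at 4740, 7950 and 6250 CPM against 2870, 3340 and 2730 CPM (edgeR adjusted p = 0.00857), and both calls ended without C3aRA replicate 1. Of the 12, 2 were higher and 1 lower without C3a replicate 2. Of 85 cytosolic ribosomal protein genes edgeR called 0, with 7 at an unadjusted p below 0.05, and DESeq2 called 1. Their median was 0.19, and -0.11 without C3a replicate 2, where 1 was higher and 7 lower.

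The other genes with large differences came from many pathways. On the higher side these were Ppcs, of coenzyme A synthesis (1.15), Cmpk2, a mitochondrial nucleotide kinase (1.12), Smim11 (1.05), Afp, alpha-fetoprotein (1.05), Dynll1, a dynein light chain (1.04), the orphan receptor Gpr176 (1.02), Mkks, a chaperonin-like protein (1.02), and Polr2l, a subunit shared by RNA polymerases (1.01). Polr2l stood at 35.5 CPM in C3a replicate 2 against 15.4 and 20.2 CPM in its group, and its log2 fold change was 0.58 without that library. On the lower side Atp10d, a lipid flippase gene that the annotation lists as a polymorphic pseudogene, stood at 7.4, 5.94 and 9.34 CPM against 20.9, 20.0 and 21 CPM (-1.45 ± 0.23, SE; edgeR adjusted p = 0.00662; held throughout). Fzd5, a Wnt receptor, stood at 8.47, 4.95 and 6.38 CPM against 17.7, 16.3 and 17.4 CPM (-1.38 ± 0.20, SE; edgeR adjusted p = 0.00443; held throughout). In both genes the C3a libraries were below every other library. Hivep1, a zinc finger regulator (-1.18), Sh2d6 (-1.18), Agrn, the matrix proteoglycan agrin (-1.18), Dnah6, a dynein heavy chain (-1.18), Gtpbp2, of ribosome rescue (-1.18), Dagla, which makes 2-arachidonoylglycerol (-1.22), Osbp2 (-1.16), Dgkq, a diacylglycerol kinase (-1.16), Ypel2 (-1.13) and Usp35, a deubiquitinase (-1.10), followed. The calls of Sh2d6, Agrn, Dnah6 and Gtpbp2 held throughout. Those of Gpr176 and Ypel2 ended without C3aRA replicate 1 alone, and those of the others here without it and also without 1 or more further libraries.

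Further lists held 1 to 4 calls each. Mmp12, macrophage elastase (0.97), and Plaur, the urokinase receptor (0.79), were higher and the metalloproteases Adamts10 (-0.77) and Adam8 (-0.57) lower among 20 matrix genes (20% called). The lactate carriers Slc16a3 (0.58) and Slc16a1 (0.44) were higher and Pfkfb3, a regulator of glycolysis, was lower (-0.51) among 35 genes of glycolysis and hypoxia. Lpcat3, which remodels phospholipids (0.51), was higher and the transporter Abca7 (-1.02) lower among 28 genes of lipid efflux and storage. Gpr132 (0.67) and Gpr183 (0.65), receptors for lipid ligands, were higher among 30 receptors for lipids, purines, protons and chemoattractants. In antigen presentation H2-Q4 (-1.07), which shares reads with paralogs, and the peptide transporter Tap1 (-0.68) were lower, and Mcoln1, a lysosomal calcium channel, was the 1 lower gene of 47 lysosomal genes (-0.91; held throughout). Txnip, which binds thioredoxin, was lower (-0.51) among 20 inflammasome genes. The share called was 8.57% for glycolysis, 7.14% for lipid efflux, 6.67% for the receptors and 8% for antigen presentation. It was 2.13% for the lysosome and 5% for the inflammasome. These shares are near or below the 6.19% of all genes. All calls of these lists but that of Mcoln1 ended without C3aRA replicate 1. Without C3a replicate 2, 2 matrix genes were higher and 4 lower, 5 and 2 of glycolysis, and 3 and 4 of lipid efflux. For the receptors the counts were 3 and 0, and for antigen presentation 0 and 4. For the lysosome they were 1 and 6, and for the inflammasome 0 and 3. That fit called 5.97% of all tested genes higher and 6.54% lower. Of 45 interferon-response genes edgeR called 0, with 10 at an unadjusted p below 0.05, and DESeq2 called 5. The same counts were 0, 7 and 3 for 24 integrin and adhesion genes, and 0, 6 and 0 for 17 genes of alternative activation. In these lists edgeR called 5, 5 and 2 genes without C3a replicate 2.

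Protein quality control and respiration added a few calls. Of 24 heat shock genes 2 were higher (8.33% called), the HSP70 partners Dnajb1 (0.67) and Dnaja1 (0.62), and 7 without C3a replicate 2. Of 37 proteasome genes 3 were higher (8.11% called), the ATPase subunits Psmc4 (0.51) and Psmc3 (0.36) and the lid subunit Psmd7 (0.39). There were 5 without C3a replicate 2. Both shares are near the 6.19% of all genes, and the fit without C3a replicate 2 called 5.97% of all tested genes higher. Among 77 nuclear genes of oxidative phosphorylation 4 were higher, all of ATP synthase, namely Atp5k (0.94), Atp5j2 (0.65), Atp5l (0.63) and Atp5g3 (0.54). That share of 5.19% is near the background, and without C3a replicate 2 there were 6 higher and 1 lower, with the list median moving from 0.28 to 0.06. Of 19 selenoprotein genes 4 were higher (21.1% called), Selenos, the glutathione peroxidase Gpx1 (0.64), Sephs2, which makes selenophosphate (0.48), and Selenot (0.40). Their list had 4 higher and 1 lower gene without C3a replicate 2, and its median moved from 0.23 to 0.02. In these 4 lists edgeR called 0 genes without C3aRA replicate 1.

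Chromatin genes were mostly called on the lower side. Of 35 chromatin genes 4 were lower and 1 higher (14.3% called). The methyltransferases Kmt2a (-1.09) and Kmt2d (-0.83) and the demethylase Kdm6b (-0.82) were among the lower ones, and the COMPASS subunit Dpy30 was higher (0.44). These counts were 10 lower and 1 higher without C3a replicate 2. Kmt2d stood at 63.1, 36.0 and 73.3 CPM with C3a, 93.4, 106 and 107 CPM with C3aRA and 152 to 168 CPM with oxy-Hb. Without C3aRA replicate 1 none of the 5 was called. The list had a median transcript length of 8187 bases, against 2736 over all tested genes, and a median log2 fold change of -0.38. That median was -0.18 without C3a replicate 2 and -0.12 after a correction for length and GC content. Over all tested genes, called higher genes had a median length of 2252 bases and lower genes of 4746. From the shortest to the longest of 10 bins of genes the median log2 fold change ran from 0.16 to -0.25, and from -0.01 to -0.08 without C3a replicate 2, as the plot by transcript length shows. With the correction 715 genes were called higher and 415 lower, so that 63.3% of calls were higher, against 46.3% without it. Of the 876 calls 712 passed in the same direction after the correction. The calls of Kmt2d (-0.29, edgeR adjusted p = 0.0856) and Dpy30 (0.34, edgeR adjusted p = 0.0839) ended with it. So did those of the 3 lower axon guidance receptors Plxna1 (-0.71), Plxnb2 (-0.55) and Plxnd1 (-0.58). They were the calls among 16 plexin and semaphorin genes (18.8% called), a list with 1 higher and 3 lower genes without C3a replicate 2. Among genes named above, Ptgs2, Tnrc6c, Dusp7, Cd300a, Aldh18a1, Edem1, Sel1l, Pdia3, Pfkfb3 and Pcna lost their calls too. Those of Junb, Mt1, Ddit3, Cry2, Per1, Trem1 and the 7 cholesterol genes stayed. Whether fragment length or RNA quality differed between libraries was not tested.

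**Figure D5:**
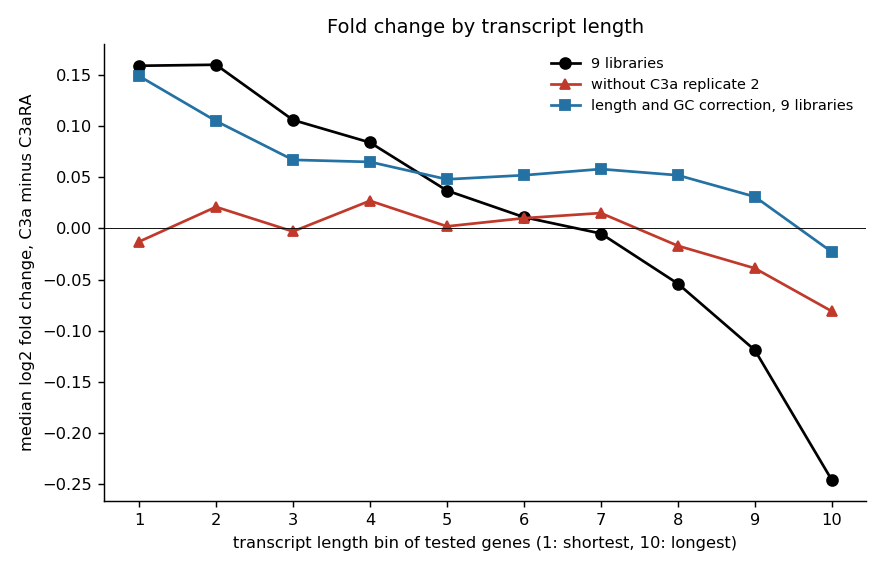
Median log2 fold change of C3a over C3aRA (vertical axis) in 10 bins of tested genes by transcript length (horizontal axis, shortest to longest). The line of 9 libraries runs from 0.16 to -0.25, that without C3a replicate 2 from -0.01 to -0.08, and that after the length and GC correction from 0.15 to -0.02.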

How the data were processed

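Messenger RNA of BV2 cells was sequenced. Per the file headers, the authors deposited raw read counts per Ensembl gene in 2 tables, each with oxy-Hb beside 1 addition. The authors' tables also hold a log2 fold change and p-values per gene against oxy-Hb, which were not used. GRCm38 and mm10 are named in the submitters' processing notes, while no aligner or counting tool is given in the sources used here. Oxy-Hb counts were the same in both tables (0 differed), and 9 symbols that a spreadsheet had turned into dates were restored from identifiers.

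Counts of 9 libraries entered 1 fit in edgeR 4.0.16 (R 4.3.3), with filterByExpr at a minimum count of 10, TMM scaling and the robust quasi-likelihood test of C3a minus C3aRA. A gene was called at a Benjamini-Hochberg adjusted p below 0.05 over all genes tested. The test was also run on simulated counts. These held no deviating library and no length trend, so they do not bear on the shifts between fits. Single-gene CPM are TMM-scaled, list sums use library totals, and errors are SEs from the fit. The members and gene lists were chosen with earlier results of these data known. Genes named were the 14 highest and 14 lowest by fold among genes called with and without C3a replicate 2, averaging at least 5 CPM and without overlap. Symbols of predicted or clone models were left out of this ranking. Up to 8 called members per list with the lowest adjusted p, a panel of pathway genes and list members that did not pass were added. Transcript lengths came from GENCODE. Promoters and miRNAs came from RefSeq tables of GRCm38.p6. Alternatives used limma 3.58.1 and DESeq2 1.42.0, other scalings and filters, a replicate block, a length and GC correction, and each library left out. Overlapping genes and antisense pairs may have shared reads, since counting by strand is not stated. Most called genes enter the text through counts only, and some members of the lists are not reported here.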

Additional observations from a re-analysis of the deposited data

How the results depend on the processing

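No gene printed in the report as called with all libraries changed direction under the alternatives run, while the number of calls depended on the settings. Against 876 calls (406 higher, 470 lower), DESeq2's Wald test gave 1521 (722 and 799), limma-voom with quality weights 1880 (936 and 944), and C3a and C3aRA alone 118 (56 and 62), or 1938 (930 and 1008) without C3a replicate 2. The length and GC correction gave 1130 (715 and 415), or 1970 (1108 and 862) without that library. An adjusted p below 0.01 left 88 (38 and 50) and a fold of at least 1.5 left 512 (210 and 302). Leaving out 1 library gave 53 to 1827 calls, 21 to 872 higher and 32 to 955 lower. Total count scaling gave 713, upper quartile scaling 890, size factors 884, dropping the count filter 1296, requiring 5 CPM on average 911 and limma-voom 756. The cause of these shifts was not tested.

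After group means were removed, same-numbered C3a and C3aRA libraries correlated at 0.066, -0.00245 and -0.029. Same-numbered oxy-Hb and C3a libraries correlated at 0.032, 0.17 and 0.111. For oxy-Hb and C3aRA the values were 0.0557, -0.00323 and -0.0405. Libraries of unlike number gave -0.142 to 0.0813. With 3 libraries per group, these values cannot decide whether the numbers pair libraries. The replicate block gave 1210 calls (538 and 672), and 2024 (939 and 1085) without C3a replicate 2.

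Genes that were not called with all libraries could change sign, among them Fth1, which was called lower without C3a replicate 2. With limma-voom Aif1 was -0.029 and Mmp9 0.029, and with the length and GC correction they were -0.025 and 0.044. Without C3a replicate 2, Arg1 was 0.253 and Itgam -0.003 with the block, C3 0.077 and Ccl2 -0.044 with the correction, and P2ry12 -0.258 in the fit of both groups alone and -0.325 with the correction. Over the 9 fits that left out a library, log2 fold changes ran from -0.218 to 0.201 for Aif1, -1.201 to 0.247 for Arg1, -0.428 to 0.08 for Fth1, -0.548 to 0.169 for Il1b, -0.278 to 0.208 for Mmp9 and -0.259 to 0.874 for P2ry12. Depth limits the precision for transcripts near the floor, such as Il1b and P2ry12.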

Other observations

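Several genes of pre-mRNA splicing were called higher with C3a than with C3aRA. They were picked out after their values had been seen, so their counts are a description and no test of the group was made. SR proteins bind exonic enhancers and recruit the spliceosome. Of 12 tested genes of the Srsf and Tra2 families 6 were called higher and 0 lower (50.0%, median log2 fold change 0.42, against 6.19% called over all genes), and 8 without C3a replicate 2 (median 0.47). Srsf3 stood at 283, 365 and 364 CPM with C3a, 183, 178 and 176 CPM with C3aRA and 190 to 258 CPM with oxy-Hb, a log2 fold change of 0.91 (edgeR adjusted p = 0.0044). All C3a libraries were above all others. Srsf5 (0.82), Srsf2 (0.75), Srsf6 (0.69) and Srsf1 (0.64) followed, and these 5 calls passed in each fit that left out 1 library. Tra2b (0.46) lost its call without C3a replicate 3 or any 1 C3aRA library. Srsf4 (-0.36, edgeR adjusted p = 0.384) and Srsf11 (-0.04) did not pass. Of 20 hnRNP genes, whose products coat nascent transcripts, 6 were higher and 0 lower (30%, median 0.24), and 9 were higher without C3a replicate 2. Hnrnpm (0.73) passed in each fit that left out 1 library, while the other hnRNP calls ended without any 1 C3aRA library.

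Some further genes that passed in each of these fits belong to none of the lists described, and were likewise named after their values were seen. Cd274, encoding the checkpoint ligand PD-L1, stood at 27.2, 22.7 and 21.6 CPM with C3a and 54.1, 46.3 and 46.6 CPM with C3aRA, a log2 fold change of -1.04 with no overlap. Tgif1, a TGF-beta signalling repressor (-1.09), Zbtb34 (-1.07), Cpeb4, which binds mRNA tails (-0.90), and Inpp4a, a phosphoinositide phosphatase (-0.83), were lower. Cd180, a Toll-like receptor homologue (0.91), Bzw1 (0.88), Mgat2, of N-glycan synthesis (0.80), and Tram1, of the ER translocon (0.78), were higher.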
